A study of Mus musculus with 2 samples.

Results

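The enzymes that write and remove DNA methylation were examined in mouse embryonic stem cells (mESCs) of the iXist-ChrX-Dom line without Xist induction, as 9 genes of the 22556 in the deposited count table. The members were taken by gene name. They were Dnmt1, Uhrf1, Dnmt3a, Dnmt3b, Dnmt3l, Tet1, Tet2, Tet3 and Tdg, and each had a row. Messenger RNA had been sequenced to rank genes by their expression before Xist, the RNA that starts X chromosome silencing, is switched on. The series holds 1 group of 2 replicates, so no conditions could be compared, and a mean ± SD below is over these 2 libraries. Both came from a female line of strain Dom/129S x Cast, with a pair of active X chromosomes. On the Dom/129S allele a TetOn promoter had been put in place of the Xist promoter, no doxycycline had been added (0 h), and the cells were untreated otherwise. The label gives the cell type as mESC to NPC. The cells grew in serum with LIF on inactivated mouse fibroblasts. Before experiments, pre-plating let these fibroblasts attach first, and the mESCs, which attach more slowly, were moved to dishes without feeders. No source used here says whether the replicates were separate cultures. The p-values compare these libraries with counting error alone, and a difference between them may be technical.

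In mammals, DNA methylation is found mainly on cytosines followed by guanine, called CpG sites. DNMT3A and DNMT3B place it on unmethylated DNA with the help of the inactive relative DNMT3L. After replication, UHRF1 recognises the half-methylated sites and brings in DNMT1, which copies the mark to the new strand. TET enzymes oxidise 5-methylcytosine, and the glycosylase TDG cuts out some of the oxidised bases so that base excision repair can restore an unmodified cytosine. Mouse ES cells in serum, and female lines with active X chromosomes in particular, are a long-used model of how these enzymes set the level of methylation. RNA levels alone were measured here, not methylation or protein.

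Promoter sequence is shown for 4 members because they differ widely in CpG content, from a start of Dnmt3l with 4 sites to Tet2 with 51. Each is the 250 bases before a RefSeq transcription start on GRCm38.p6, the assembly also called mm10, written 5′ to 3′ along the gene with CpG sites in capitals. The windows chosen hold no annotated exon. The gene starts given further on are those of the count table, which for the plus strand members lie 1 base before the RefSeq start. They are chr17:56304063-56304312 on the plus strand before start 2 of Uhrf1, chr2:153649199-153649448 on the plus strand before Dnmt3b, chr10:78049592-78049841 on the plus strand before start 2 of Dnmt3l, and chr3:133544391-133544640 on the minus strand before Tet2.
Uhrf1, start 2: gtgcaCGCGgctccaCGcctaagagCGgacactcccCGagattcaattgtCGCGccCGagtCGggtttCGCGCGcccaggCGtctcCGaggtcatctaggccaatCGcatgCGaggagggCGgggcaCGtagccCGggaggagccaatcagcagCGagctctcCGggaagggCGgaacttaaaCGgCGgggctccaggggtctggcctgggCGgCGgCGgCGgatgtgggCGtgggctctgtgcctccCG
Dnmt3b: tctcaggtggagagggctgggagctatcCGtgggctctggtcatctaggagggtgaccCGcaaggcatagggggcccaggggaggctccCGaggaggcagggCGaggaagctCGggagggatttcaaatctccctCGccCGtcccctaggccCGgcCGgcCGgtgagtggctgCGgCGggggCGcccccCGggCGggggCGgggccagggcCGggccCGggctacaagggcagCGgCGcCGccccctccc
Dnmt3l, start 2: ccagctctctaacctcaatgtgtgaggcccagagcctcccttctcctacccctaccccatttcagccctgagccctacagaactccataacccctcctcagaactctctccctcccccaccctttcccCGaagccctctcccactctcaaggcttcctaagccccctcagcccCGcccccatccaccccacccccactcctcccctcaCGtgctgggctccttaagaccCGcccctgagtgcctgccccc
Tet2: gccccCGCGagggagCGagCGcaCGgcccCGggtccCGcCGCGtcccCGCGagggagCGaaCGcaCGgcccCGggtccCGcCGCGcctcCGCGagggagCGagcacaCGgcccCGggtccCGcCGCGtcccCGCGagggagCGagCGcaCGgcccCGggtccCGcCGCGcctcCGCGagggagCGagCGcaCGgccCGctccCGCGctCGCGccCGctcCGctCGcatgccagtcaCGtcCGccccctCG

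The libraries held 23716499 counts in replicate 1 and 20275749 in replicate 2, and a count of 0 allows up to 3 counts in either. Intervals and this floor reflect the error of counting and nothing else, since the fragments carried no molecular identifiers and may include copies of one molecule. The libraries stood apart beyond counting error. In a two-sided exact binomial test of each gene's 2 counts against the ratio of the totals, 60.8% of the 14536 genes with at least 10 counts differed at an adjusted p of 0.05. Of all tested genes, 15.1% were higher and 45.7% lower in replicate 2, and the difference followed the GC content of the transcript. Markers of ES cells were high, with 14 of 15 at 10 TPM (transcripts per 1000000, scaled by exonic length) or more. Their median was 160 TPM in replicate 1 and 86.5 TPM in replicate 2. In the test 12 of 15 were lower and 2 higher in replicate 2, beside the 45.7 and 15.1% of all genes. With TMM factors, by which edgeR rescales the library totals, 8 were lower and 4 higher, beside 28.9 and 28.8% of all genes. The ES cell markers summed to 6088 TPM in replicate 1 and to 4982 TPM in the other, and Tdgf1 led at 2283 TPM. For neural precursor markers the median was 0.107 TPM, with 1 of 12 at 10 TPM or more (Slc1a3, 58.7 TPM), a sum of 68.5 and 64.3 TPM, and Olig2 at 0 counts in both libraries. None of 16 fibroblast markers reached 10 TPM. Their sums were 26.7 and 18.9 TPM, with Twist1 highest at 9.36 TPM and Lum at 0 counts. Primitive endoderm markers summed to 16.6 and 16.04 TPM, and 1 of 8 reached 10 TPM (Dab2, 12.2 TPM). The markers were thus those of ES cells and not of the neural precursors that the label also names.

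Levels are given as TPM, here the counts divided by the exonic length of the gene and scaled to 1000000 per library, unless another scale is named. By this measure 7 of the 9 members reached 10 TPM, as did 34.0% of the 22147 genes with an exonic length. With the deposited length, which includes introns, 6 did, as Dnmt3a stood at 9.39 TPM. The median of the 8 members that could be read was 51.3 TPM, against 1.85 TPM over all genes and 18.4 TPM over the 12252 genes at 1 TPM or more. Tet1 was the highest and Tet3 the lowest of these 8. The ninth, Tdg, could not be read from this table, as described with its counts.

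**Figure D1:**
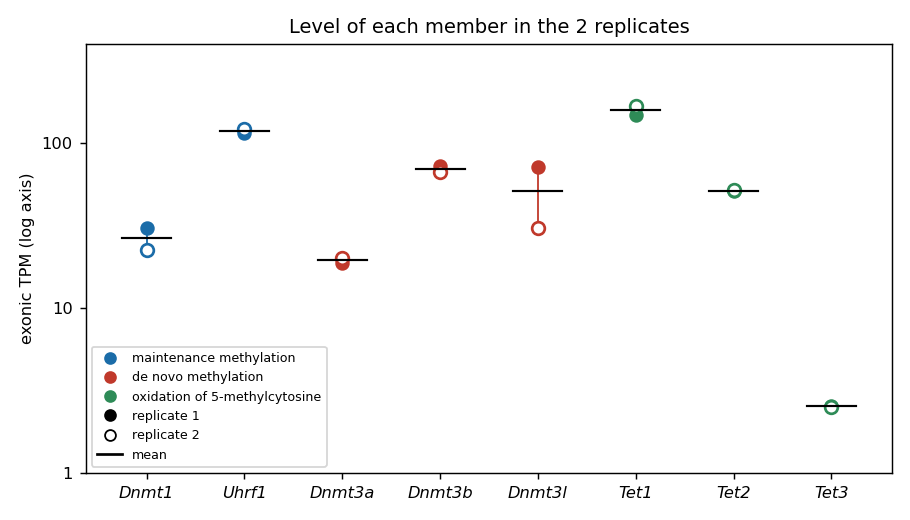
Exonic TPM on a log axis for the 8 members that could be read, coloured by role. Filled points are replicate 1, open points replicate 2 and bars their mean. The points of Tet2 and Tet3 coincide, while those of Dnmt3l stand apart at 71.7 and 30.5 TPM.

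Of the maintenance pair, UHRF1 was far above DNMT1 at the RNA level. Uhrf1 (chromosome 17, 56303336 to 56323486, plus strand on mm10) gave 3199 counts in replicate 1 and 2708 in replicate 2. These are 116 and 122 TPM, a mean of 119 ± 4.32 TPM (SD, n = 2). It stood above 91.2% of all genes, and its replicates lay close together. Its level is uncertain to the extent that 18.9% of the 50-base words of its transcript also occur in the pseudogenes Gm5648 and Gm15953, whose reads may be shared with it.

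Dnmt1 (chromosome 9, 20907205 to 20959888, minus strand), the enzyme that UHRF1 brings to replicated DNA, had 1457 and 862 counts. Its levels were 30.8 and 22.6 TPM, a mean of 26.7 ± 5.75 TPM. No 50-base word of its transcript occurred in a transcript of another annotated gene. The log2 ratio of Uhrf1 to Dnmt1 came to 1.92 in replicate 1 and 2.43 in replicate 2, a mean of 2.17 ± 0.37, or 4.51-fold. It was 2.78 with the deposited length and 1.39 with no correction for length. Both replicates put Uhrf1 above Dnmt1, by 3.77-fold in replicate 1 and 5.40-fold in replicate 2.

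The de novo methyltransferases differed from each other more than either differed between replicates. Dnmt3b (chromosome 2, 153649448 to 153687730, plus strand) had 2360 and 1750 counts, equal to 72.6 and 66.9 TPM and a mean of 69.7 ± 3.999 TPM. Some 11.5% of the words of its transcript also occur in Dnmt3c, a rodent copy of the gene known from male germ cells, which was not analysed here. Dnmt3a (chromosome 12, 3806979 to 3914443, plus strand), the other active enzyme, had 1405 counts in replicate 1 and 1210 in replicate 2. Its levels were 18.9 and 20.2 TPM, a mean of 19.5 ± 0.945 TPM. Dnmt3a was thus the lower of the pair in both libraries. The log2 ratio of Dnmt3b to Dnmt3a was 1.94 in replicate 1 and 1.73 in replicate 2, a mean of 1.84 ± 0.15, or 3.57-fold. In CPM, the counts scaled to 1000000 per library with no correction for length, this log2 ratio was 0.64. An antisense gene inside the Dnmt3a locus, Dnmt3aos, had 0 counts in both libraries.

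Dnmt3l (chromosome 10, 78042286 to 78063622, plus strand), which has no methyltransferase activity of its own and stimulates DNMT3A and DNMT3B, was the member that differed most between the libraries. It had 1439 counts in replicate 1 and 492 in replicate 2. Its levels were 71.7 and 30.5 TPM, with a mean of 51.1 ± 29.1 TPM. In replicate 1 it was level with Dnmt3b, and in replicate 2 it was below Dnmt3b by more than the spread of that gene. Set against the sum of Dnmt3a and Dnmt3b, its log2 ratio came to −0.35 in replicate 1 and −1.51 in replicate 2, a mean of −0.93 ± 0.82, and in CPM the mean was −1.99. The mean level of Dnmt3l is therefore known less well than that of the other readable members.

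TET1, the TET enzyme best known from ES cells, gave the highest level in the set. Tet1 (chromosome 10, 62804569 to 62880014, minus strand) had 15998 and 14710 counts, or 148 and 169 TPM, and a mean of 159 ± 15.0 TPM. It stood above 93.5% of all genes. The RefSeq start of Tet1 lies 7310 bases outside the span that was counted, so fragments lying at that start were not included.

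Tet2 (chromosome 3, 133463676 to 133544390, minus strand), the relative that lacks the CXXC DNA-binding domain, had 3540 counts in replicate 1 and 2880 in replicate 2. At 51.2 and 51.8 TPM its mean was 51.5 ± 0.422 TPM, one of the closest replicate pairs among the members. Tet3 (chromosome 6, 83362373 to 83441678, minus strand), known for its role in the zygote and in neurons, had 226 and 178 counts, or 2.56 and 2.51 TPM. Its mean of 2.53 ± 0.0373 TPM stood above 52.9% of all genes. Tet3 was thus present in both libraries at a low level. The log2 ratio of Tet1 to Tet2 was 1.53 in replicate 1 and 1.71 in replicate 2, a mean of 1.62 ± 0.12, or 3.08-fold. It was 2.36 with the deposited length and 2.26 in CPM. Of the summed TPM of the TET genes, Tet1 made up 73.4% in replicate 1 and 75.7% in replicate 2. Tet2 supplied 25.4 and 23.2%, and Tet3 1.27 and 1.12%.

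Tdg (chromosome 10, 82629837 to 82650494, plus strand), the glycosylase that excises oxidised methylcytosine, had 7 counts in replicate 1 and 10 in replicate 2. These counts are no measure of its expression. The gene Gm9855 overlaps it on the same strand so that 221 of its 20658 bases, or 1.07%, are free of the other gene, and a fragment lying in a pair of genes on one strand was counted for neither. Gm9855 itself had 0 counts in both libraries. In addition, 66.3% of the 50-base words of the Tdg transcript also occur in Gm9855 and the copies Tdg-ps and Gm5597. Among all genes in the table, 504 had less than 50% of their span free in this way, and no other member did, since the rest had 100% of their span free.

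By mean TPM the order of the readable members ran from Tet1 through Uhrf1, Dnmt3b, Tet2, Dnmt3l, Dnmt1 and Dnmt3a to Tet3. Most neighbours were apart, in that the lower replicate of one exceeded the higher replicate of the next. The exceptions were Tet2 against Dnmt3l and Dnmt3l against Dnmt1, whose replicate ranges overlapped. The widest step was from Dnmt3a to Tet3, at 7.70-fold, and the step from Tet1 to Uhrf1 was 1.33-fold. These steps are a description, because 2 values against 2 cannot pass an exact permutation test at 0.05.

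Dnmt1, Dnmt3a and Dnmt3b together summed to 122 TPM in replicate 1 and to 110 TPM in the other. The TET genes summed to 202 and 224 TPM. The log2 ratio of the first sum to the second was −0.72 in replicate 1 and −1.03 in replicate 2, a mean of −0.88 ± 0.21, or 0.545-fold. It was −1.50 with the deposited length and −2.07 in CPM. Across genes, levels in these libraries were lower at high GC content, and the members differ in GC content. Tet1 and Tet2 had transcripts of 43.7 and 45.4% GC, against 51.9 to 54.0% for the other readable members. Genes at 1 TPM or more within 1 percentage point of the GC content of Tet1 had a median of 57.9 TPM, and those near Tet2 a median of 38.8 TPM. Near Dnmt1 the median was 10.3 TPM, near Dnmt3b 11.7 TPM and near Dnmt3a 15.0 TPM. Against such genes of like GC content, a measure added after the values had been seen, Uhrf1 stood above 95.4%, Dnmt3b above 90.7%, Dnmt3l above 84.8% and Tet1 above 75.9%. Dnmt1 stood above 72.8%, Dnmt3a above 57.5%, Tet2 above 56.2% and Tet3 above 15.7%. Tet1, first by TPM, was therefore below Uhrf1, Dnmt3b and Dnmt3l when set among genes of like GC content. The part of GC content in the ratio of DNMT to TET levels was not tested.

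The order also depended on the scale. TPM with the deposited length, which runs over introns as well, kept Tet1 first at 158 TPM and Uhrf1 next at 113 TPM, and Dnmt3l at 32.9 TPM and Tet2 at 30.6 TPM changed places. On that scale Dnmt3b was at 41.0 TPM, Dnmt1 at 16.6 TPM and Dnmt3a at 9.39 TPM. With the length of the longest transcript Dnmt3l, at 70.7 TPM, stood above Dnmt3b at 66.0 TPM and Tet2 at 48.7 TPM, and 6 of 9 members kept their rank. In CPM Tet1 had 675 CPM in replicate 1 and 725 in replicate 2, and Tet2, at 149 and 142 CPM, was above Uhrf1, at 134.9 and 133.6 CPM. Dnmt3a rose from rank 7 by TPM to rank 5 by CPM, at a mean of 59.5 CPM, and Dnmt3l went from 5 to 7. The exonic lengths behind this ran from 2670 bp for Dnmt3l and 3667 bp for Uhrf1 to 11739 bp for Tet3 and 14376 bp for Tet1.

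**Figure D2:**
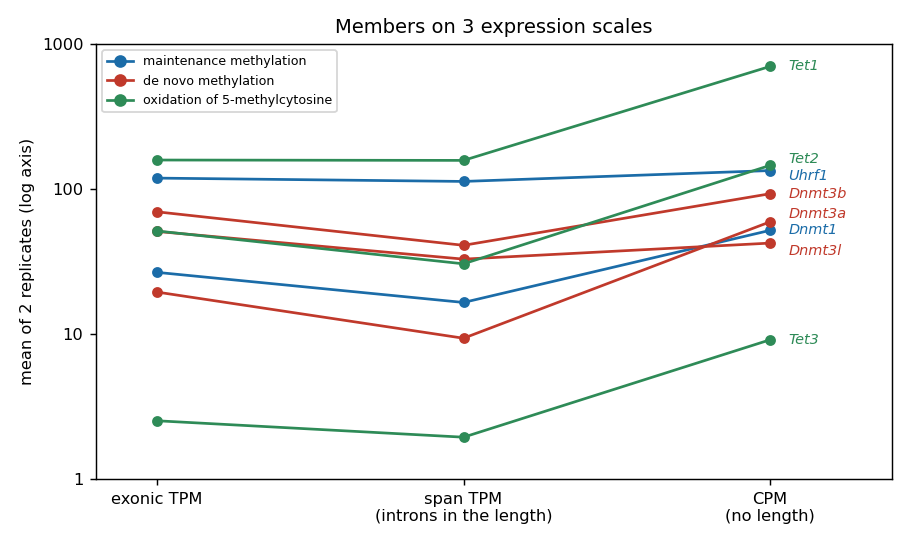
Mean of the 2 replicates for the 8 readable members on 3 scales, on a log axis: TPM with exonic length, TPM with the deposited span length and CPM. Lines join the values of 1 gene. Tet1 is highest and Tet3 lowest on each scale, and the lines of Tet2 and Dnmt3a cross others on the way to CPM.

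The replicates were then compared gene by gene, which tests these 2 libraries and no condition. Of the 9 members, 4 passed the exact binomial test, beside 60.8% of all genes tested. Dnmt1, Dnmt3b and Dnmt3l were lower in replicate 2 (3 of 9, beside 45.7% of all genes) and Tet1 was higher (1 of 9, beside 15.1%). A log2 ratio below is replicate 2 over replicate 1 in CPM, with a 95% Clopper-Pearson interval.

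Dnmt3l had 60.7 CPM in replicate 1 and 24.3 CPM in replicate 2, a log2 ratio of −1.32 (−1.47 to −1.17; adjusted p = 3.72e-76, exact binomial test). It was 2.50-fold higher in replicate 1, a larger change than in 95.3% of the 9736 genes that had 50 or more counts in both libraries. Aire, an autoimmune regulator gene on the opposite strand whose span overlaps the 5′ end of Dnmt3l, moved the same way, with 470 and 176 counts and a log2 ratio of −1.19. Its part in the values of Dnmt3l was not tested. Dnmt1 had 61.4 and 42.5 CPM, a log2 ratio of −0.53 (−0.65 to −0.41; adjusted p = 2.94e-17, exact binomial test). Dnmt3b, with 99.5 and 86.3 CPM, had a smaller ratio of −0.21 (−0.30 to −0.12; adjusted p = 1.74e-05, exact binomial test). Tet1 was the sole member higher in replicate 2 past the threshold, at a log2 ratio of 0.11 (0.07 to 0.14; adjusted p = 8.21e-10, exact binomial test).

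The remaining members did not pass. Uhrf1 had a log2 ratio of −0.01 (−0.09 to 0.06) and Dnmt3a of 0.01 (−0.10 to 0.12), so that the intervals held no change beyond 0.12 in size on the log2 scale. Tet2 was at −0.07 (adjusted p = 0.0773, exact binomial test). Tet3, with fewer counts, had the widest interval of the readable members, at −0.12 (−0.41 to 0.17). For Tdg the ratio of 0.71 rested on 17 counts (adjusted p = 0.415, exact binomial test).

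The direction of these differences moved with the GC content and with the scaling. At the GC content of Dnmt1, Uhrf1, Dnmt3b, Dnmt3l and Tet3, a trend fitted over autosomal genes lay between −0.65 and −0.61, and at that of Tet1 and Tet2 it was 0.03 and −0.09. Against this trend 6 members passed, beside 44.6% of all genes, with 23.0% higher and 21.6% lower. Dnmt3l was still lower in replicate 2, by a log2 difference of −0.70 (adjusted p = 5.36e-21, exact binomial test). Dnmt1 was at 0.12 (adjusted p = 0.119, exact binomial test) and so no longer differed past the threshold. Uhrf1 at 0.62, Dnmt3a at 0.55, Tet3 at 0.51 and Dnmt3b at 0.40 were above the trend, which turned the sign for Uhrf1, Tet3 and Dnmt3b, as it did for Dnmt1. With TMM factors the median gene with at least 50 counts moved from −0.17 to 0.08, and 6 members passed, 4 higher and 2 lower in replicate 2, beside 57.7% of all genes, with 28.8% higher and 28.9% lower. Dnmt3b was then at 0.051 and did not pass, while Uhrf1 at 0.24, Dnmt3a at 0.27 and Tet2 at 0.18 passed as higher in replicate 2. Dnmt3l as lower and Tet1 as higher in replicate 2 passed under all 5 alternatives to this test. The others were DESeq2 size factors (7 members, beside 57.8% of all genes, 31.6% higher and 26.1% lower), at least 10 counts in each replicate (4 members, beside 65.2%, 17.5% higher and 47.7% lower) and no filter on counts (4 members, beside 37.4%, 9.34% higher and 28.1% lower). The settings that differ in the filter on counts keep the log2 ratio of the main test and change the adjustment alone. Their passes therefore add nothing to that of the main test. The plot of the replicate difference against GC content shows Dnmt3l below the trend and Uhrf1, Dnmt3a, Dnmt3b and Tet3 above it.

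**Figure D3:**
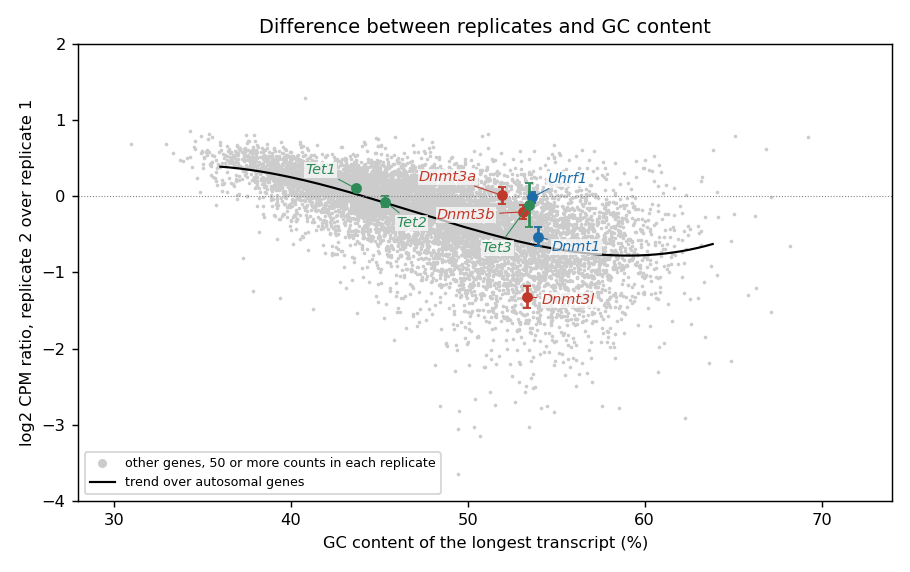
Log2 CPM ratio of replicate 2 over replicate 1 against the GC content of the longest transcript in percent, for the 8 readable members (coloured by role, bars are 95% Clopper-Pearson intervals) and the other genes that had 50 or more counts in both libraries (grey). The line is the polynomial trend over autosomal genes. Dnmt3l lies 0.70 below it and Uhrf1 0.62 above it.

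Transcription starts differed in CpG content within and between members. Over 32817 RefSeq starts, the 250 bases upstream held a median of 6 CpG sites, with quartiles at 2 and 16. The members have 16 of these starts. Tet2 had 51 sites, more than 99.9% of all starts, and the starts of Dnmt3a had 38, 40 and 15. Dnmt3b had 21, Tdg 19, Tet3 17 and Tet1 15. Those of Dnmt3l held 5, 4 and 3, below the median. Uhrf1 had 10 and 30 sites. Dnmt1 had 2, 7 and 26, so that its alternative starts fell on both sides of the median. The count table sums the starts of a gene, and the level from each could not be read.

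**Figure D4:**
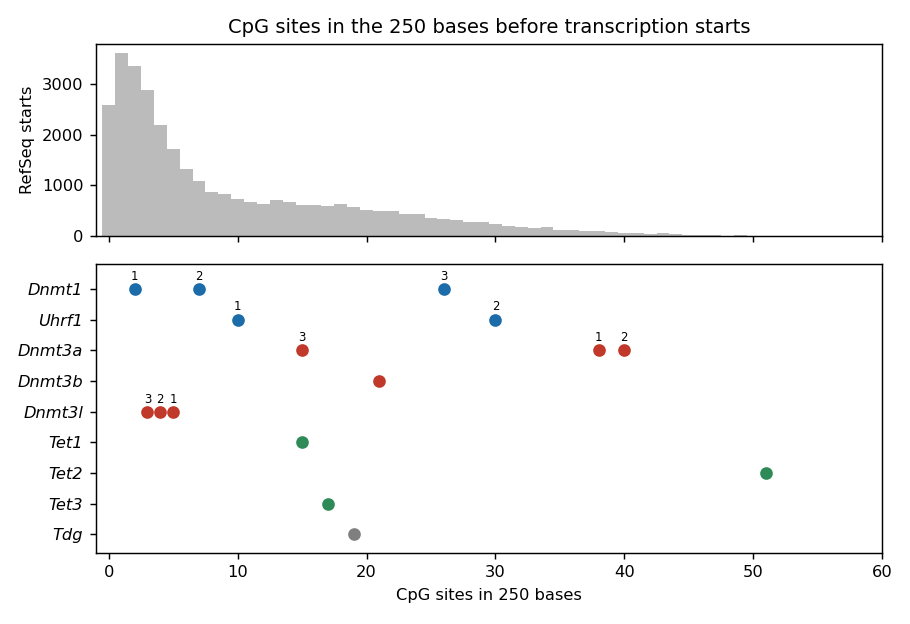
CpG sites in the 250 bases before transcription starts. The upper panel counts the 32817 RefSeq starts at each number of sites, and the lower panel shows the 16 starts of the members, numbered where a gene has several. The starts of Dnmt3l sit at 3 to 5 sites, near the peak of the upper panel, and Tet2 at 51, in its tail.

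An E2F motif, TTTCGCGC or TTTGGCGC on either strand, was found before 1 start of each maintenance gene. E2F factors are known to act on genes used in DNA replication, the process that both of these proteins follow. The motif lay in the window of Uhrf1 start 2 printed above and in that of Dnmt1 start 3, and in no other window of the members. In the Dnmt1 window (chr9:20952624-20952873, minus strand), 166 of the 250 bases belong to annotated exons. Of all starts, 0.655% held an E2F motif. A GC box, GGGCGG on either strand, was found before 32.7% of all starts, and before 11 of the 16 starts of the members. There were 5 and 4 matches at Dnmt3a starts 1 and 2, whose windows overlap, and 3 each at Dnmt3b and Uhrf1 start 2. No member window held the octamer ATTTGCAT, which 1.60% of all starts had. These are matches of letters in a window and no evidence of binding.

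Other genes of the pathway were described through 7 lists, in exonic TPM. Of their 65 genes, 64 had a row, and 49 reached 10 TPM, as did 34.0% of all genes. Their median was 42.9 TPM against 51.3 TPM for the readable members. In the test between replicates 46 of 62 passed, 10 higher and 36 lower in replicate 2, beside 15.1 and 45.7% of all genes. With TMM factors 27 were higher and 21 lower, beside 28.8 and 28.9% of all genes, whose balance moved the same way.

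Partners and regulators of DNMT1 and UHRF1 were the list with the highest median, at 228 TPM, and all 8 reached 10 TPM. Hells, a chromatin remodeller needed for normal DNA methylation, was highest at 909 TPM, with 32773 and 38136 counts, and Cdca7l, a relative of the HELLS partner CDCA7, was lowest at 54.4 TPM. In exonic TPM even the lowest of these partners was above Dnmt1, which does not hold by mean CPM. There Cdca7l, with 1269 and 925 counts, and Dppa3, a germ cell and oocyte factor named after its values were seen, with 604 and 170 counts, were below it. The transcripts of this list ran from 37.7 to 53.6% GC, against 54.0% for Dnmt1, and levels in these libraries were lower at high GC content. The part of GC content in the levels of this list was not tested. In the test 2 were higher and 5 lower in replicate 2 (15.1 and 45.7% of all genes), and with TMM factors 3 were higher and 4 lower (28.8 and 28.9%). Among 7 regulators of DNMT3 and of methylation in XX ES cells, Klhl13 was highest at 2111 TPM, with 62019 and 53249 counts. It is an X-linked gene linked to the lower methylation of XX ES cells. Dusp9, another such X-linked gene and a phosphatase of MAP kinases, was lowest at 2.69 TPM. It had 100 counts in replicate 1 and 8 in replicate 2, a log2 ratio of −3.34 (adjusted p = 1.24e-17, exact binomial test). This list had a median of 90.3 TPM, and 5 of 7 were lower and none higher in replicate 2, although with TMM factors 3 were higher and 4 lower, beside the same shares of all genes.

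Of 13 proteins that bind methylated or unmethylated CpG sites, 8 reached 10 TPM, with a median of 21.8 TPM. Cxxc5 was highest at 56.8 TPM, and Cxxc4, its close relative, lowest at 0.128 TPM with 6 and 4 counts. In the test 2 were higher and 6 lower in replicate 2 (15.1 and 45.7% of all genes), and with TMM factors 4 were higher and 2 lower (28.8 and 28.9% of all genes). The base excision repair list, which acts after TDG, had 8 of 11 genes at 10 TPM or more and a median of 29.9 TPM. It ran from the glycosylase Neil3 at 271 TPM to its relative Neil1 at 0.896 TPM. Here 1 was higher and 8 were lower in replicate 2, beside the same 15.1 and 45.7% of all genes. With TMM factors 2 were higher and 5 lower, beside 28.8 and 28.9% of all genes.

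Cofactors and partners of the TET enzymes had 8 of 9 genes in the table, and Sinhcaf had no row under that symbol. Of these, 6 reached 10 TPM and the median was 74.3 TPM. Ogt, the O-GlcNAc transferase that binds TET proteins, led at 436 TPM, and Gadd45g was lowest with 3 and 1 counts, within the 3 counts that a count of 0 allows. All 7 tested genes passed, beside 60.8% of all genes, with 2 higher and 5 lower in replicate 2 (15.1 and 45.7% of all genes). With TMM factors 4 were higher and 3 lower (28.8 and 28.9% of all genes). The S-adenosylmethionine cycle, which supplies the methyl group, had a median of 129 TPM with 6 of 7 genes at 10 TPM or more. Mat2a, which makes S-adenosylmethionine, was highest at 304 TPM. In this list 5 were lower and none was higher in replicate 2 (45.7 and 15.1% of all genes), whereas with TMM factors 5 were higher and 1 lower (28.8 and 28.9%).

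Germline genes whose promoters are silenced by methylation in somatic cells were also measured. Of 10, 7 reached 10 TPM, with a median of 24.6 TPM. Sycp3, a protein of the meiotic chromosome axis, was highest, with 1786 and 2176 counts and 236 TPM. On one strand or the other, 50.4% of its words occur in Chpt1, but no other gene of the count table overlaps its span on the same strand. Tex101 was lowest, with 0 counts in both libraries. In replicate 2, 3 of the 9 germline genes tested were higher and 2 lower, beside 15.1 and 45.7% of all genes. With TMM factors 6 were higher and 2 lower, beside 28.8 and 28.9%. The genes higher in the main test, Dazl, Sycp3 and Sycp1, are named here after their values were seen. Their transcripts had 37.0, 34.3 and 34.6% GC. At 37.0% GC the trend over autosomal genes lay at 0.37, and its part in these counts was not tested.

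With the deposited length, 5 of these lists had another gene in the lead, named here after its value was seen. Pcna at 836 TPM was then above Hells at 749 TPM, Zfp57 at 776 TPM above Klhl13 at 305 TPM and Zbtb33 at 118 TPM above Cxxc5 at 21.5 TPM. Apex1 at 361 TPM was above Neil3 at 61.1 TPM, although 65.6% of the words of Apex1, and 31.8% of those of Pcna, occur in other genes, and Dazl at 174 TPM above Sycp3 at 115 TPM.

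**Figure D5:**
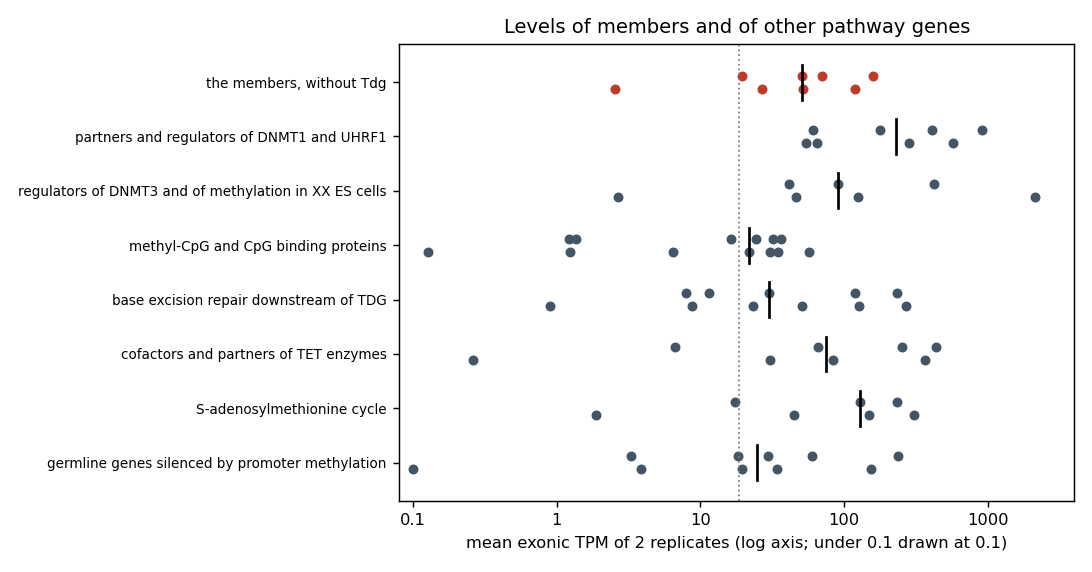
Mean exonic TPM of the 2 replicates on a log axis for the 8 readable members (red) and for the genes of each pathway list (grey). Black bars are medians, the dotted line is the median of 18.4 TPM of all genes at 1 TPM or more, and a value under 0.1 TPM is drawn at 0.1. Partners of DNMT1 and UHRF1 lie at 54.4 TPM or more, and the other lists spread over a wider range.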

How the data were processed

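The authors deposited counts of polyadenylated RNA fragments per gene for 2 libraries (mm10), made by featureCounts 1.5.2, per the file headers, in reverse-stranded mode over transcript spans, introns included. Beside the counts the deposited table gives the span length. The submitters' processing notes also name STAR 2.4.2a and Bowtie2 2.3.2, and how the mRNA reads were aligned is not given in the sources used here. Columns were matched to samples by name, apart from a letter b that only the descriptions have.

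TPM used the union of exons of GENCODE M21 basic transcripts, matched for 22147 genes (98.2%). GC content came from the longest transcript, and shared 50-base words from other transcripts, searched on both strands. Counts were compared between libraries by a two-sided exact binomial test with Benjamini-Hochberg adjustment at 0.05 (SciPy 1.17.1, statsmodels 0.14.6). It was checked on simulated counts that held planted changes and counting error alone. That check cannot show its error rate in these libraries, which differed beyond counting error. A log2 ratio added 0.5 counts. Alternatives used TMM factors (edgeR 4.0.16), DESeq2 1.42.0 size factors, other filters and a GC trend of degree 3 over 9243 autosomal genes. Differences in sequencing depth (23716499 and 20275749 counts) enter through the totals. Promoter sequences are from RefSeq (GRCm38.p6), where all 9 members matched. Named genes are the members, the highest and lowest gene of each list, genes without a row and the top marker of each list, except 1 gene that is not reported here; genes overlapping a member, and markers at 0 counts, were named after their values were seen. The members and lists were chosen with earlier results of these data known.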

Additional observations from a re-analysis of the deposited data

How the results depend on the processing

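No paired analysis was possible because both replicates belong to 1 group. Of 114 alternatives over 26 results, beside those that left out a replicate, 70 kept a test's call, moved a level by no more than its SD between replicates or changed a count by at most 1.5 times. Those 70 include the filters on counts, which left the log2 ratios as they were and changed the adjustment alone. A further 31 moved a value, 3 brought Dnmt3a past the threshold (0.27 with TMM factors, 0.32 with DESeq2 size factors, 0.55 with the GC trend) and 10 reversed the sign of a ratio that passed under the main or the other setting. These log2 ratios between replicates were those of Uhrf1 (0.24 with TMM factors, 0.30 with DESeq2 size factors, 0.62 with the GC trend), Dnmt3b (0.051 with TMM factors, 0.11 with DESeq2 size factors, 0.40 with the GC trend), Tet2 (0.18 with TMM factors, 0.24 with DESeq2 size factors), Dnmt1 (0.12 with the GC trend) and Tet3 (0.51 with the GC trend). The sign also turned, with no pass in either setting, for Tet2 (0.016 with the GC trend) and Tet3 (0.14 with TMM factors, 0.19 with DESeq2 size factors). With DESeq2 size factors 7 members differed (57.8% of all genes), against 4 in the main test (60.8%). With TMM factors or the GC trend 6 did (57.7 and 44.6% of all genes). Such scalings shift all genes alike or by GC content.

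Log2 ratios of levels with span length, and then in CPM, were 2.13 and 0.64 for Dnmt3b to Dnmt3a, 2.78 and 1.39 for Uhrf1 to Dnmt1, 2.36 and 2.26 for Tet1 to Tet2, and −1.50 and −2.07 for summed DNMT to TET. Dnmt3l to Dnmt3a plus Dnmt3b was −1.99 in CPM. The order in CPM kept 4 of 9 members at their rank. With 2 replicates, leaving one out cannot move a mean by more than the SD, so these values show the range and no stability. With one replicate left out at a time, the level of Dnmt3l ran from 30.5 to 71.7 TPM, and the ratios ran from 1.73 to 1.94, from 1.92 to 2.43, from 1.53 to 1.71, from −1.03 to −0.72 and, for Dnmt3l, from −1.51 to −0.35, so the Dnmt3l ratio depends on the library, at −1.51 without replicate 1 and −0.35 without replicate 2. The number of pathway genes at 10 TPM or more was 48 without replicate 1 and 50 without replicate 2. Over all settings it ran from 45, with the deposited length, to 50. Leaving out a replicate gives no test with 2 libraries and was not run for the binomial test. Exons inside the counted span, pathway genes with free spans and comparison with genes of like GC content were added after the data had been seen. Depth limits genes near 3 counts, and Tdg is limited by the overlap with Gm9855.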
